A study of Mus musculus with 14 samples.

Results

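Myoglobin, cytoglobin and the adult hemoglobin chains were followed heart by heart in RNA-seq of mouse hearts with and without a conditional knockout of Fam210a in cardiomyocytes. The members were listed by gene symbol and are 6 of the 53735 rows of each deposited count table: Mb, Cygb, the beta globin genes Hbb-bs and Hbb-bt and the alpha globin genes Hba-a1 and Hba-a2. All 14 hearts came from male C57BL/6 mice that carried the alphaMHCMCM/+ transgene, a Cre that the Myh6 promoter restricts to cardiomyocytes and that tamoxifen switches on. Knockout (cKO) hearts were Fam210afl/fl, alphaMHCMCM/+ and control hearts alphaMHCMCM/+ without floxed alleles, so the controls carried the same Cre. Hearts were taken about 5 weeks (early, 4 cKO and 4 control) or about 10 weeks (late, 3 cKO and 3 control) after tamoxifen. By the study's design text, cKO hearts still worked normally at the early time and showed defects by the late time. No source used here gives the age of the mice.

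Poly(A) RNA of the heart was sequenced without strand information, and each heart gave 15657298 to 19466469 counts in the early table and 29989076 to 35750964 in the late table. Early and late hearts were counted in separate tables, and time cannot be told apart from table. Fam210a itself stood at 165 to 178 CPM (the count scaled by the library total) in early control hearts and 135 to 158 in early cKO hearts, and at 120 to 134 against 64.6 to 70.8 in the late hearts. For early cKO replicate 4 the title and description give a knockout whereas the genotype field gives the control genotype; the heart was kept as a knockout. Late cKO replicate 3 stood apart from the other 2 late cKO hearts in a chi-square comparison of counts per gene. Whether each library is a different mouse is not stated in the labels, and the p-values describe only the spread among these libraries.

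Globins bind oxygen at a heme iron. Myoglobin holds and carries oxygen inside heart and oxidative muscle fibres and also scavenges and generates nitric oxide, whereas cytoglobin is found in fibroblasts, vascular mural cells and related cells and degrades nitric oxide. Hemoglobin is made in erythroid cells from alpha and beta chains, and its mRNA in bulk heart RNA is usually carried by red cells and reticulocytes in the blood that remains in the tissue.

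In GRCm38 with GENCODE M21, Mb lies at chr15:77015487-77050670 on the minus strand and Cygb at chr11:116645595-116654313 on the minus strand. The beta genes lie side by side, Hbb-bt at chr7:103812524-103813996 and Hbb-bs at chr7:103826534-103828096, both on the minus strand. The alpha genes are Hba-a1 at chr11:32283511-32284465 and Hba-a2 at chr11:32296489-32297298, both on the plus strand. Exons of Mb overlap the antisense gene Gm49540 and Apol6, and Cygb overlaps Prcd, so reads of these neighbours cannot be told apart from those of the member where they overlap. Apol6 itself had 4 to 36 counts a heart.

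The hemoglobin genes come as near-identical copies, which limits what each row can say. The coding sequence of Hba-a1 differs from that of Hba-a2 at 1 of 429 bases (C381T, counted from 1 at the first base of the start codon), and Hbb-bs from Hbb-bt at 1 of 444 bases (C417T). Of all 100-base stretches, the read length used here, 56.5% of those in the longest Hba-a1 transcript also occur in Hba-a2, and 62.6% of those in Hbb-bs also occur in Hbb-bt. How reads that fit both copies were counted is not given in the sources used here, so the rows of a pair are uncertain one by one, while Mb shares no such stretch with Hbb-bs or Cygb. The coding bases from position 356 to 406 of the alpha pair and 392 to 442 of the beta pair are shown to give the only coding base that tells the copies apart, in capitals (GENCODE M21).
Hba-a1: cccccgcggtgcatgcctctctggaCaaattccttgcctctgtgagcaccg
Hba-a2: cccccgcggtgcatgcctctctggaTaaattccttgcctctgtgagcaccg
Hbb-bs: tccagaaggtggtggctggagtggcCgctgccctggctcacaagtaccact
Hbb-bt: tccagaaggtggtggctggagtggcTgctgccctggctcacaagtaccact

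The 100 bases upstream of the RefSeq start (GRCm38.p6) are shown for the 4 hemoglobin genes, because their rows moved together from heart to heart. Capitals mark a CACCC box, a CCAAT box and the TATAA box, each searched on both strands.
Hbb-bs, chr7:103827929-103828028, minus strand: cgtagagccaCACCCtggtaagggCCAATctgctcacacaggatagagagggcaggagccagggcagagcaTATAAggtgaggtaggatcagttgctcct
Hbb-bt, chr7:103813924-103814023, minus strand: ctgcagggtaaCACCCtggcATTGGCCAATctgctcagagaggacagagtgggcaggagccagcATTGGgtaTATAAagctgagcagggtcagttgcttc
Hba-a1, chr11:32283572-32283671, plus strand: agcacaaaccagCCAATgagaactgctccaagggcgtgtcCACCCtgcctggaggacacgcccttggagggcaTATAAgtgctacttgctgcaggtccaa
Hba-a2, chr11:32296392-32296491, plus strand: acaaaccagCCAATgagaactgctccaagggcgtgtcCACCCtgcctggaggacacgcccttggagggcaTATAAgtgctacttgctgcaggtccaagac
All 4 hold all 3 of these motifs, which occur in 27.2% (CACCC), 18.9% (CCAAT) and 10.2% (TATAA) of the 32851 promoter windows of the same length. None of the 4 holds AGATAA (3.59% of windows) or TGATAA (2.78%), letters that GATA factors can bind, in this window. For Mb, which has 3 RefSeq starts, the window that holds CCCACCCC (4.34% of windows) is shown, with that motif and the E-box CANNTG (34.5%) in capitals.
Mb, chr15:77022788-77022887, minus strand: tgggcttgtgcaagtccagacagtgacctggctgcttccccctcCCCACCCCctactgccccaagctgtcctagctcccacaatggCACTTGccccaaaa
A match describes the letters only. Cygb had no promoter entry.

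Myoglobin mRNA fell 6.14-fold in late cKO hearts and did not pass the test in early ones. In early control hearts Mb stood at 9927, 9560, 10983 and 9895 CPM, and in early cKO hearts at 9355, 9347, 9744 and 9168 CPM. The early groups overlapped, and the log2 fold change was -0.10 ± 0.06 (SE, n = 4 and 4, edgeR quasi-likelihood adjusted p = 0.624). In late control hearts it stood at 13925, 12098 and 10154 CPM, against 1768, 1779 and 2348 CPM in late cKO hearts. Every late cKO heart lay far below every late control heart. The log2 fold change was -2.62 ± 0.19 (SE, n = 3 and 3, edgeR adjusted p = 5.18e-06). As a share of all counts, Mb went from 1.24% in late control hearts to 0.191% in late cKO hearts. In bulk tissue, fewer cells of a type and less RNA per cell cannot be told apart.

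Cytoglobin fell 1.72-fold in the late cKO hearts. Its early values were 80.8, 81.3, 92.5 and 98.3 CPM in control hearts and 72.2, 75.9, 92.0 and 96.6 CPM in cKO hearts. These overlapped over most of their range (log2 fold change -0.07 ± 0.10 SE, n = 4 and 4, edgeR adjusted p = 0.879). Late control hearts held 105, 128 and 110 CPM and late cKO hearts 57.1, 69.7 and 72.7 CPM. The late groups did not overlap, and the late log2 fold change was -0.78 ± 0.13 (SE, n = 3 and 3, edgeR adjusted p = 0.00077).

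The hemoglobin chains rose 4.16-fold to 5.09-fold in the late cKO hearts. Hbb-bs, the more highly counted beta chain, ranged over early control hearts from 7.60 through 21.2 and 32.4 to 72.3 CPM, and early cKO hearts held 31.9, 16.8, 21.1 and 21.2 CPM. The 4 early control hearts thus spanned 9.52-fold and enclosed all early cKO values. Late control hearts had 34.8, 20.2 and 27.4 CPM and late cKO hearts 188, 96.0 and 135 CPM. Each late cKO heart exceeded every heart of the other 3 groups, and the late rise was 5.09-fold (log2 fold change 2.35 ± 0.27 SE, n = 3 and 3, edgeR adjusted p = 7.16e-05). Hbb-bt, its neighbour and near copy, had 1.02, 3.44, 5.26 and 11.2 CPM in early control hearts and 4.50, 2.84, 3.89 and 4.08 CPM in early cKO hearts. Its late values were 6.22, 4.06 and 5.34 CPM in control and 33.6, 14.7 and 20.9 CPM in cKO hearts, with no overlap. The late rise of Hbb-bt was 4.43-fold (log2 fold change 2.15 ± 0.30 SE, edgeR adjusted p = 0.000213).

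The alpha chains followed the beta chains in every heart. Hba-a1 had 2.57, 7.91, 12.7 and 32.0 CPM in early control hearts and 14.3, 7.98, 8.62 and 9.16 CPM in early cKO hearts. Late control hearts had 17.7, 10.3 and 12.9 CPM and late cKO hearts 88.6, 50.0 and 69.0 CPM. The late groups lay apart, with a 5.06-fold rise (log2 fold change 2.34 ± 0.25 SE, n = 3 and 3, edgeR adjusted p = 4.69e-05). Hba-a2 had 2.69, 4.65, 8.33 and 20.2 CPM in early control, 7.54, 4.51, 5.53 and 5.97 CPM in early cKO, 12.6, 6.76 and 8.46 CPM in late control and 51.0, 26.8 and 38.0 CPM in late cKO hearts. Here too the late cKO hearts were the 3 highest of all 14. Its late rise was 4.16-fold (log2 fold change 2.06 ± 0.28 SE, edgeR adjusted p = 0.000196).

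**Figure D1:**
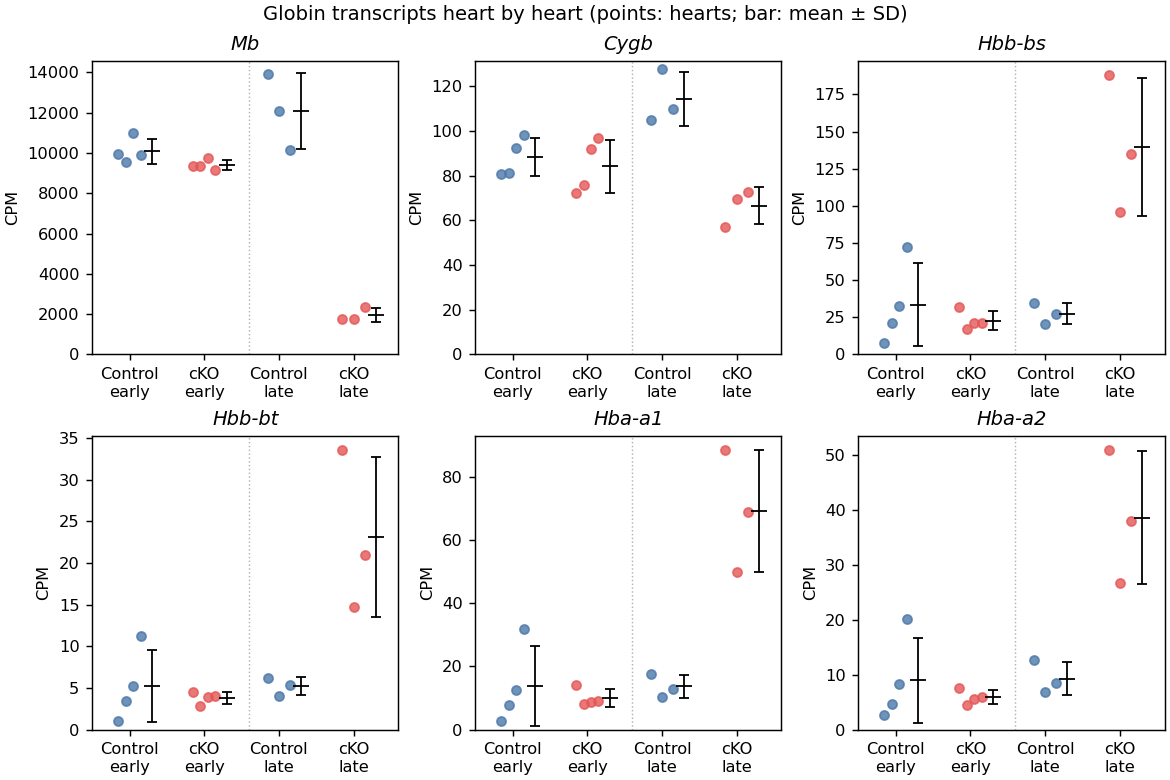
CPM of each of the 6 globins in the 14 hearts by genotype and time, on linear axes from 0, 1 panel a gene; points are hearts (blue control, red cKO) and bars give mean ± SD. Late cKO hearts hold the lowest Mb values (1768 to 2348 CPM) and the highest Hbb-bs values (96.0 to 188 CPM).

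At the early time none of the 6 members passed the test, where 0.613% of the 13529 genes tested did (0.517% higher and 0.0961% lower). None had an unadjusted p under 0.05 in edgeR and none passed in DESeq2. Values of all 6 overlapped between early control and early cKO hearts, whereas in 5.65% of tested genes the groups did not overlap (2.98% higher and 2.68% lower). The early hemoglobin differences ran from -0.62 to -0.46 on the log2 scale with standard errors of 0.46 to 0.50. They rested on early control replicate 4, the heart with the highest hemoglobin: without it Hbb-bs was at 0.16, Hbb-bt at 0.25, Hba-a1 at 0.38 and Hba-a2 at 0.17. Hence no direction was drawn from them.

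At the late time all 6 passed, 4 higher and 2 lower, and in all 6 the groups did not overlap. The late comparison called 65% of the 14942 genes tested (31.8% higher and 33.2% lower), and in 69.8% of tested genes the groups did not overlap (34% higher and 35.9% lower), so passing the test was the common outcome. Changes of the size seen in Mb and the hemoglobin chains were less common. In all, 4.35% of tested genes had a late log2 fold change as low as that of Mb or lower, and 25.5% as low as that of Cygb or lower. A log2 fold change as high as that of Hbb-bs or higher was found in 3.77% of tested genes, and the corresponding shares were 4.43% for Hbb-bt, 3.79% for Hba-a1 and 4.74% for Hba-a2. The median log2 fold change over all genes tested was -0.02.

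**Figure D2:**
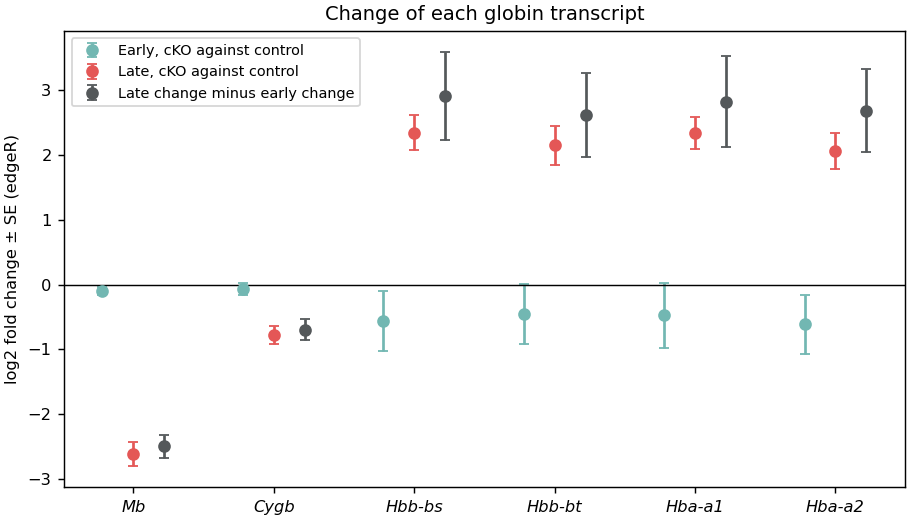
Log2 fold change of cKO over control (edgeR, bars ± SE) for the 6 globins at the early and late times, and the late change minus the early change. Early values run from -0.62 to -0.07, and late values from -2.62 for Mb to 2.35 for Hbb-bs.

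The change with time was tested as the genotype-by-time difference over all 14 hearts, in which 61.2% of 14555 genes passed (29.8% higher and 31.3% lower, or 4342 and 4561 genes, and 3328 and 5570 with upper quartile scaling). All 6 members passed, 2 lower and 4 higher, with either scaling. The late minus early difference in log2 fold change was -2.50 ± 0.18 (SE) for Mb (edgeR adjusted p = 1.26e-08) and -0.69 ± 0.17 for Cygb (adjusted p = 0.00218). For the hemoglobin chains it was 2.92 ± 0.68 for Hbb-bs (adjusted p = 0.00155), 2.62 ± 0.65 for Hbb-bt (adjusted p = 0.00253), 2.82 ± 0.70 for Hba-a1 (adjusted p = 0.00254) and 2.68 ± 0.64 for Hba-a2 (adjusted p = 0.00187). Every early-to-late difference had the sign of the late change.

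Per kilobase of the longest annotated transcript, the order of levels in control hearts was Mb far above the others, then Hbb-bs and Cygb, then the alpha chains, then Hbb-bt. In late control hearts Mb stood at 10923 ± 1708 CPM per kilobase (SD, n = 3), Cygb at 49.0 ± 5.12, Hbb-bs at 43.8 ± 11.6, Hba-a1 at 19.6 ± 5.38, Hba-a2 at 16.8 ± 5.46 and Hbb-bt at 7.40 ± 1.55. Cygb and Hbb-bs did not differ beyond their spread there, nor did the 2 alpha chains. In late cKO hearts Mb stood at 1779.9 ± 301 CPM per kilobase, Hbb-bs at 223 ± 73.8, Hba-a1 at 99.0 ± 27.6, Hba-a2 at 69.7 ± 21.9, Hbb-bt at 32.8 ± 13.7 and Cygb at 28.5 ± 3.55. Cygb thus moved from beside Hbb-bs to the lowest place, which it shared with Hbb-bt within their spread. The ratio of Mb to Hbb-bs counts, heart by heart, was 1306, 450.2, 339 and 137 in early control, 293, 555, 462 and 432 in early cKO, 400.02, 599 and 370.4 in late control, and 9.39, 18.5 and 17.4 in late cKO hearts. Late it was 30.8-fold lower in cKO hearts, without overlap, and the exact permutation p was 0.1, the smallest that 3 against 3 hearts can give (two-sided).

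The 4 hemoglobin rows kept nearly the same proportions while their total changed. Their summed level was 13.9, 37.2, 58.7 and 136 CPM in early control hearts, 58.3, 32.2, 39.1 and 40.4 CPM in early cKO hearts, 71.4, 41.4 and 54.1 CPM in late control hearts and 362, 188 and 263 CPM in late cKO hearts. Alpha counts were 0.509 to 0.740 of beta counts over the 14 hearts (median 0.627). Hbb-bt made up 11.8% to 16.7% of beta counts (median 14.2%), and Hba-a2 made up 34.6% to 51.1% of alpha counts (median 38.9%). The 51.1% came from early control replicate 1, the heart with the fewest hemoglobin counts (95% Wilson interval 40.9% to 61.3%, counting error only). Among the late hearts Hba-a2 was 34.9% to 36.5% of alpha counts in cKO and 39.5% to 41.6% in control hearts, and this small shift was not tested. Correlations of log2 CPM among the 4 rows, each heart centred on its group mean, were 0.959 to 0.995, as a description over 14 hearts that share libraries and near-identical sequences. Mb against the hemoglobin rows gave 0.0606 to 0.159, and Mb against Cygb 0.261.

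The 9 other globin rows were neuroglobin (Ngb), androglobin and embryonic or theta-type chains. None passed the low-count filter, 3 were at 0 in all hearts, and the highest count in any heart was 12, in Ngb.

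Red cell markers were divided. Of the 9 that could be tested late, 5 rose and 1 fell (median log2 fold change 0.60). Slc4a1, the anion exchanger band 3 of the red cell membrane, had 2 counts in the 3 late control hearts together and 200 in the 3 late cKO hearts, a ratio of 98.2 (95% interval 26.8 to 817, counting error only). Alas2, which makes the first heme precursor in erythroid cells, was at 2.13 ± 0.763 CPM in late control and 10.9 ± 4.33 CPM in late cKO hearts (SD, n = 3). It rose by 2.36 ± 0.34 (SE) on the log2 scale (edgeR adjusted p = 0.000263), beside 2.06 to 2.35 for the hemoglobin chains. Ermap, an erythroblast membrane protein, rose from a low level (log2 fold change 2.50, adjusted p = 0.00117), and Epor, the erythropoietin receptor, fell by 2.54 (adjusted p = 0.000197). Car1 was at 0 in all groups. Epb42, a membrane protein that binds band 3, was at 0 in the late control hearts and had 7, 5 and 6 counts in the late cKO hearts. Rhag, Hemgn and Tspo2 were at 0 in the late control hearts and in late cKO replicate 2, and had 1 to 4 counts in the other late cKO hearts. The summed marker level was 184 to 216 CPM in late control and 143 to 216 CPM in late cKO hearts, most of it Sptb. In the early hearts Alas2 was at 0.479, 1.59, 2.44 and 6.40 CPM in controls and 2.85, 1.97, 2.44 and 2.54 CPM in cKO. These control values rise and fall with the hemoglobin chains of the same hearts. How much residual blood each heart held was not measured, and its part in the hemoglobin values was not tested.

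Leukocyte and platelet markers, which blood also brings, gave 1 higher and 2 lower of 5 tested late (median log2 fold change 0.43) and 0 of 4 early (0 with an unadjusted p under 0.05 in edgeR, 0 in DESeq2). Ptprc, the pan-leukocyte CD45, fell by 1.88 on the log2 scale (edgeR adjusted p = 3.01e-05) and Pf4, a platelet chemokine also made by macrophages, fell by 1.46 (adjusted p = 0.00021). S100a8, a neutrophil protein and the 1 called higher, rose by 1.69 from under 1 CPM (adjusted p = 0.00497). It had 31 counts in the late control hearts together and 103 in the late cKO hearts. Without the cKO hearts S100a8 would not have entered the test, so its call is no separate support for a rise. S100a9 had a log2 fold change of 0.98 (adjusted p = 0.152). S100a9 passed without late control replicate 3 (adjusted p = 0.0247) or late cKO replicate 1 (adjusted p = 0.0361). The summed level was 21.3 to 25.1 CPM in late control and 9.96 to 11.4 CPM in late cKO hearts, most of it Pf4 and Ptprc in the control hearts. Gp9, a platelet glycoprotein, had 7 counts in the late control hearts together and 22 in the late cKO hearts, and Itga2b, the platelet integrin chain, 125 and 171, with overlap between groups in both. Ly6g was at 0 in all groups. Without late cKO replicate 3, 5 markers were lower rather than 2.

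The fall of Mb was set against other cardiomyocyte genes, which are made in the cells where the Cre is active. Of 20 markers, 6 rose, 7 fell and 7 did not pass late (median log2 fold change -0.07). Ckmt2, the mitochondrial creatine kinase of striated muscle, fell by 3.56 on the log2 scale (edgeR adjusted p = 2.6e-07), and it was the only marker of the 20 to fall more than Mb. Myl3, a ventricular myosin light chain, fell by 2.55 (adjusted p = 5.53e-06), Pln, the calcium pump regulator phospholamban, by 1.76 and Ckm, the cytosolic creatine kinase, by 1.42. The summed level of the markers was 108614 to 122683 CPM in late control and 95472 to 116636 CPM in late cKO hearts, overlapping, and none was at 0. Mb per 1000 CPM of these markers was 93.5 to 114 in late control and 17.3 to 20.1 in late cKO hearts, 5.66-fold lower (exact permutation p = 0.1, two-sided, the smallest possible). The late log2 difference was -2.50 with the sum of the markers and -2.13 with their geometric mean, so its size depends on that choice. Early it was 89.2 to 93.8 in control and 89.4 to 100.003 in cKO hearts (log2 difference 0.03, exact permutation p = 0.514, two-sided). At the early time 0 of the 20 markers passed in edgeR (6 with an unadjusted p under 0.05, 0 in DESeq2), and 19 had a negative log2 fold change (median -0.11). Among the 18 most abundant tested genes (average log2 CPM 12 or more), Mb had the lowest late log2 fold change.

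**Figure D3:**
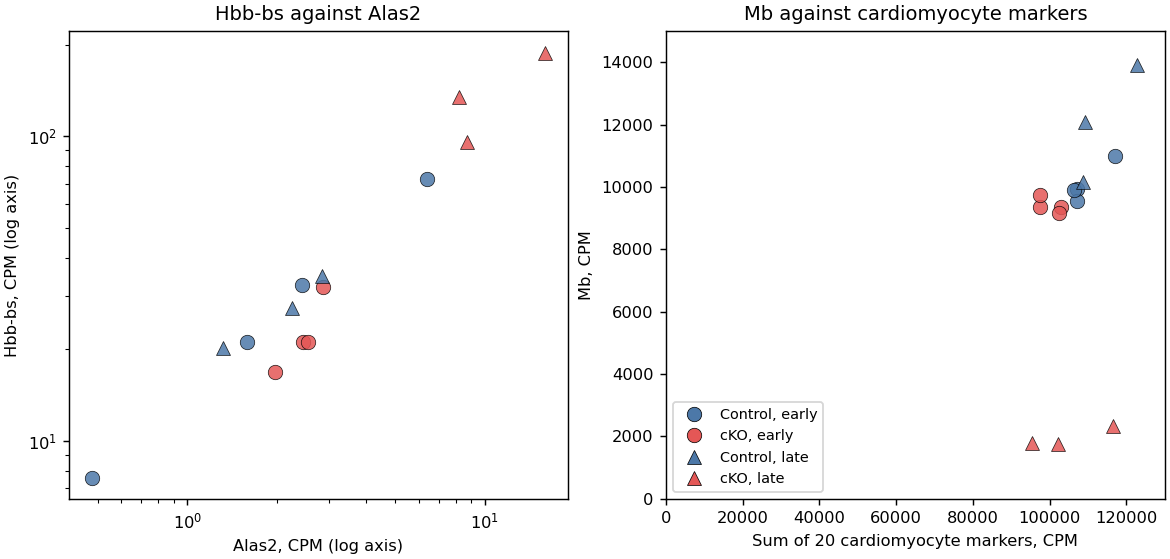
Left, Hbb-bs against Alas2 in CPM on log axes; right, Mb against the summed CPM of 20 cardiomyocyte markers on linear axes from 0; each symbol is a heart (circles early, triangles late, blue control, red cKO). Hbb-bs and Alas2 are highest in the 3 late cKO hearts, and late cKO hearts hold 1768 to 2348 CPM of Mb at marker sums of 95472 to 116636 CPM.

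Cygb was set against fibroblast and mural markers, which mark the cells known to make it. Of 16, 2 rose and 11 fell late (median log2 fold change -1.05), and 0 passed early in edgeR (1 with an unadjusted p under 0.05, 0 in DESeq2). Dpt and Lum, matrix proteins of fibroblasts, had log2 changes of -2.22 and -2.34 (edgeR adjusted p = 1.01e-06 and 1.04e-05). Kcnj8, a potassium channel subunit of pericytes, fell by 2.08 (adjusted p = 3.5e-06), whereas Cspg4, the pericyte proteoglycan NG2, rose by 1.70 (adjusted p = 1.26e-05). The summed level went from 4583 to 5497 CPM in late control hearts to 2379.7 to 2769 CPM in late cKO hearts, in the same direction as Cygb. Its part in the fall of Cygb was not tested.

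Among heme synthesis genes, 2 of 13 rose and 6 fell late (median log2 fold change -0.22). The 2 that rose were the erythroid Alas2 and Slc25a39, a mitochondrial glutathione carrier, which rose by 2.03 on the log2 scale (edgeR adjusted p = 1.5e-05). Uros, uroporphyrinogen III synthase, fell by 1.25 (adjusted p = 3.32e-05) and Abcb10, a mitochondrial transporter linked to heme synthesis, by 0.67 (adjusted p = 0.00112). Alas1, the rate-limiting enzyme outside the erythroid lineage, was the 1 gene of the list that passed early, at 183 to 218 CPM in control and 131 to 165 CPM in cKO hearts (log2 fold change -0.50, adjusted p = 0.012). Late control hearts averaged 195 ± 25.4 CPM and late cKO hearts 138 ± 18.1 CPM (SD, n = 3), a log2 change of -0.50 (adjusted p = 0.012). The early call was lost when early cKO replicate 4 was counted as a control (adjusted p = 0.272) and in a single fit of all 14 hearts (adjusted p = 0.0516), and the late call without late control replicate 1 (adjusted p = 0.0579).

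Among heme breakdown and iron genes 7 of 14 rose and 1 fell late (median log2 fold change 0.18). Hmox1, heme oxygenase 1, which opens the heme ring, rose late from 11.9 ± 1.65 to 77.0 ± 10.9 CPM (SD, n = 3), by 2.70 in log2 (edgeR adjusted p = 1.65e-06). It was also the 1 of 13 that passed early (log2 fold change 0.88, adjusted p = 0.0149), and the late minus early difference was 1.84 (adjusted p = 4.09e-06). The early call was lost without early control replicate 2, 3 or 4 or early cKO replicate 2, with adjusted p from 0.0527 to 0.0603. Blvra, biliverdin reductase A, rose by 1.13 and Ftl1, the ferritin light chain, by 0.92 on the log2 scale. Slc40a1, the iron exporter ferroportin, fell by 3.74 (adjusted p = 6.59e-07), and Tfrc, the transferrin receptor, had a log2 fold change of -0.09 (adjusted p = 0.752).

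All 11 tested genes of globin reduction and nitric oxide passed late, 5 higher and 6 lower (median log2 fold change -0.64), where 65% of all tested genes passed. With upper quartile scaling Ddah1 lost its late call. Genes of the cytochrome b5 reductase family, whose member Cyb5r3 keeps globin iron in its oxygen-binding state, gave 3 of the 4 smallest p-values. Cyb5r3 rose from 101 ± 8.64 to 567 ± 38.8 CPM late (SD, n = 3), by 2.48 in log2 (edgeR adjusted p = 7.82e-07). Early its log2 fold change was -0.03 (adjusted p = 0.91), and the difference between times was 2.53 (adjusted p = 2.27e-10). Cyb5r1 rose from 33.2 ± 2.74 to 598 ± 100.2 CPM late (adjusted p = 2.71e-07) and was the 1 of 10 tested that passed early (log2 fold change 0.91, adjusted p = 0.00646), with 2 passing without early cKO replicate 4. Cyb5r2 had 3 counts in the late control hearts together and 2710 in the late cKO hearts, a ratio of 887 (95% interval 303 to 4306, counting error only). It entered the late test only through the cKO hearts. Its call and small p-value, counted above among the 5 higher genes and 4 smallest p-values, are no separate support for a rise. Nos2, the inducible nitric oxide synthase, had a log2 fold change of -4.34 (adjusted p = 5.17e-07).

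**Figure D4:**
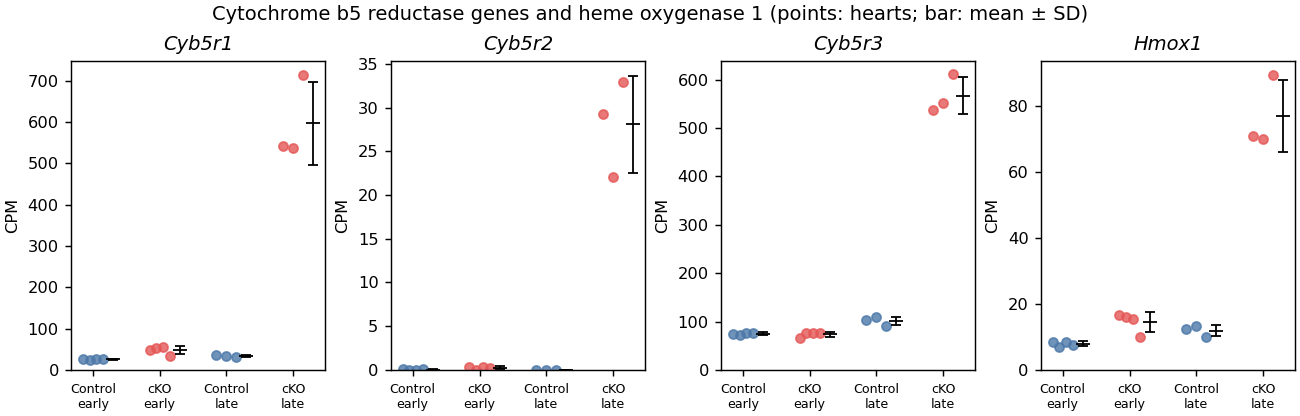
CPM of Cyb5r1, Cyb5r2, Cyb5r3 and Hmox1 in the 14 hearts on linear axes from 0; points are hearts (blue control, red cKO) and bars give mean ± SD. Cyb5r3 is at 538 to 611 CPM in late cKO hearts against 91.8 to 108 CPM in late control hearts, and Hmox1 at 70.3 to 89.7 against 10.0 to 13.2 CPM.

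Targets of hypoxia-inducible factor (HIF), which respond to low oxygen, were split. Of 18 tested late, 7 rose and 7 fell (median log2 fold change -0.02), and 0 passed early in edgeR (1 with an unadjusted p under 0.05, 0 in DESeq2). Ddit4, a stress-induced mTOR inhibitor, rose by 1.86, Slc2a1, the glucose transporter GLUT1, by 1.54 and Pgk1, a glycolytic enzyme, by 1.42 on the log2 scale (edgeR adjusted p = 4.49e-06, 6.98e-05 and 9.05e-06). P4ha1, a collagen prolyl hydroxylase, fell by 1.45 (adjusted p = 4.64e-05).

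Regulators of the oxidative muscle program, some of which are known to act on the Mb promoter, gave 5 higher and 4 lower of 18 late (median log2 fold change -0.10). Rcan1, a calcineurin regulator, rose by 1.99 on the log2 scale (edgeR adjusted p = 1.13e-06) and Ppp3ca, a calcineurin catalytic subunit, by 0.55 (adjusted p = 0.00115). Perm1, a muscle regulator of mitochondrial genes, fell by 1.63 (adjusted p = 1.13e-05) and Nfatc4, a calcineurin-responsive factor, by 1.65 (adjusted p = 4.91e-05). Ppargc1a, the coactivator PGC-1alpha, was the 1 of 18 that passed early (log2 fold change -0.58, adjusted p = 0.0223). Its late log2 fold change was -0.49 (adjusted p = 0.135), and -0.82 without late cKO replicate 1 (adjusted p = 0.0112). The early call of Ppargc1a was lost without any of 5 hearts, early control replicates 1, 2 and 4 and early cKO replicates 2 and 3 (adjusted p 0.0562 to 0.0727), and in a single fit of all 14 hearts (adjusted p = 0.416).

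**Figure D5:**
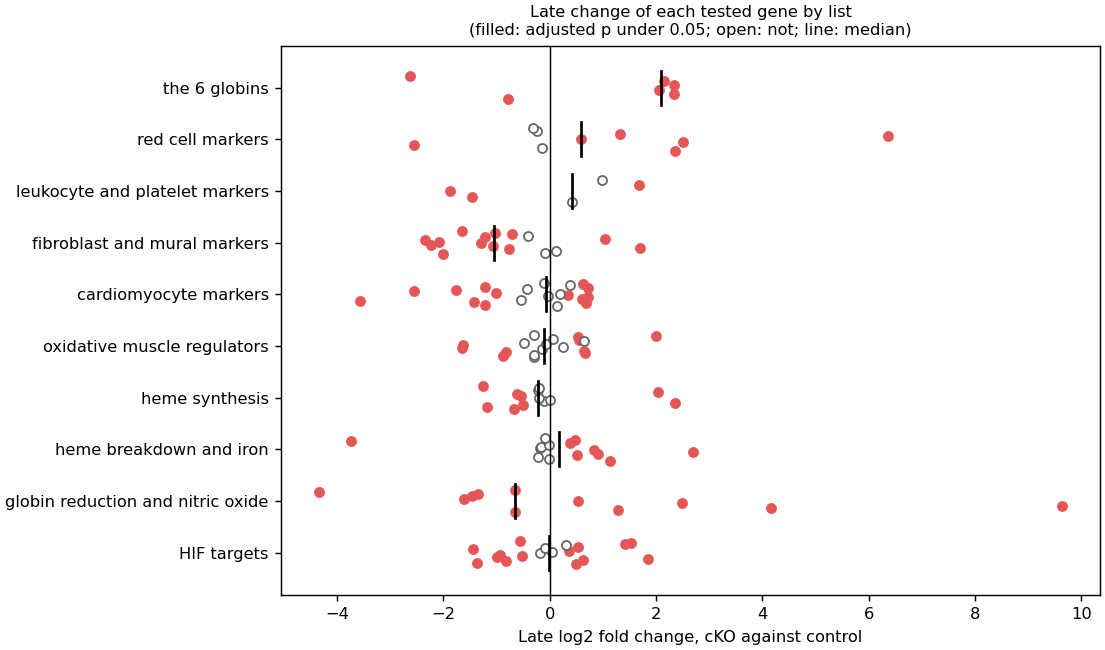
Late log2 fold change (edgeR) of each tested gene by list; filled points passed the test, open points did not, and the line is the list's median. Mb at -2.62 lies below all cardiomyocyte markers but Ckmt2 at -3.56; the points farthest right, Slc4a1 among red cell markers and Cyb5r2 among globin reduction genes, rest on 3 or fewer control counts and their fitted size depends on the prior count.

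The genes most like a member were taken as those with the highest Pearson correlation of group-centred log2 CPM over the 14 hearts, among 11802 genes, as a description. For Mb these were Hcfc1r1 (0.993), Ndufa9 (0.982), Alad (0.980), Csrp3 (0.975) and Ndufb3 (0.971), of which Ndufa9 and Ndufb3 encode subunits of respiratory complex I, Alad a heme synthesis enzyme and Csrp3 a muscle LIM protein. For Cygb they were Rtp3 (0.905), RP23-407H16.1 (0.892), Ndrg1 (0.889), Grik5 (0.862) and Ywhaq (0.849). For Hbb-bs, Alas2 came first at 0.973, followed by Dennd1c (0.858), Uckl1 (0.855), Tmem229b (0.833) and Fam3a (0.832). Over the 6 late hearts alone Dennd1c was at 0.220 and Tmem229b at -0.267, against 0.976 and 0.932 over the 8 early hearts. The late changes of these genes were not all alike: beside -2.62 for Mb, the log2 fold change was -1.18 for Alad and 0.60 for Csrp3, and beside 2.35 for Hbb-bs it was 2.36 for Alas2.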

How the data were processed

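The 2 tables deposited by the authors hold raw read counts per gene symbol, 1 for each time. Per the submitters' processing notes, Trimmomatic 0.36, STAR 2.6.0c and GRCm38 were used. No source used here names the program, annotation or strand setting used for counting. Members and lists were chosen with earlier results of these data known. Groups came from the titles. Each time was fitted on its own with edgeR 4.0.16 (TMM scaling, filterByExpr with a minimum count of 10 and total of 15, quasi-likelihood F test, Benjamini-Hochberg adjusted p under 0.05 over all tested genes), and the time difference over all 14 hearts. CPM values use TMM-scaled library sizes. SE was taken as log2 fold change over root F. The code was tested on simulated counts. Named were the 6 members, up to 4 genes per list with the smallest p, Hmox1, Alas1, Alas2, Tfrc, Ppargc1a and Cyb5r3, and the 5 genes most like Mb, Cygb and Hbb-bs, leaving out predicted, Y-linked and Xist rows. Early, the list genes that passed were named, except 1 result that is not reported here. The 9 lists were markers of red cells, cardiomyocytes, fibroblasts and mural cells, and leukocytes and platelets, and genes of heme synthesis, heme breakdown and iron, globin reduction and nitric oxide, HIF targets and oxidative muscle regulators. Alternatives were DESeq2 1.42.0, other scalings, no filter, a replicate block, 1 fit over 14 hearts, early cKO replicate 4 as a control, and each heart left out.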

Additional observations from a re-analysis of the deposited data

Results flagged for a closer look

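In all 6 globins the effect of the knockout differed between the 2 times, by the genotype-by-time test over 14 hearts. The late minus early difference in log2 fold change was -2.50 for Mb, -0.69 for Cygb, 2.92 for Hbb-bs, 2.62 for Hbb-bt, 2.82 for Hba-a1 and 2.68 for Hba-a2. In that test 61.2% of genes passed, and each time was counted in a table of its own.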

How the results depend on the processing

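Late and time-difference results of all 6 globins kept direction and call under every alternative run. The late log2 fold change ranged over all alternatives from -2.79 to -2.49 for Mb, -0.95 to -0.67 for Cygb and 2.08 to 2.57 for Hbb-bs. The 83 early calls became 176 with DESeq2, 388 with no filter, 162 with early cKO replicate 4 as a control, and 45 to 181 when 1 heart was left out (54, 46 and 45 without control replicates 2, 3 and 4, 46 without cKO replicate 2, 181 without cKO replicate 4). Left-out hearts moved the early values, none of them called, from -0.89 to 0.16 for Hbb-bs, -0.80 to 0.25 for Hbb-bt, -0.82 to 0.38 for Hba-a1 and -0.92 to 0.17 for Hba-a2. They moved other uncalled values across 0: early Alas2 -0.52 to 0.71 (0.064 with the replicate block), early Cyb5r3 -0.056 to 0.017, late Tfrc -0.40 to 0.11, and in log2 the early Mb to Hbb-bs ratio -0.46 to 0.62 and the early ratio of Mb to cardiomyocyte markers -0.0019 to 0.052 (-0.0052 with a geometric mean of the markers). Upper quartile scaling moved the late median of all genes to -0.19 and the difference to -0.21. It took the higher share of late calls from 49.0% to 39.8% and that of the time difference from 48.8% to 37.4%. It lost 12 and gained 8 of the list calls made late and turned no called list gene or member. Replicate numbers did not pair the hearts (correlations of same-numbered deviations -0.412 to -0.0365), and the replicate block gave 78 early, 8374 late and 8012 time-difference calls and ended, among the genes named, the calls of Ppargc1a early and Alas1 late. A single fit of all 14 hearts ended the early calls of Alas1 (adjusted p = 0.0516) and Ppargc1a (adjusted p = 0.416). The cause of these shifts was not tested. In lists recounted after seeing the data, early heme breakdown and oxidative muscle calls each went from 1 to 0 without early control replicate 4, and higher globin reduction genes from 1 to 2 without early cKO replicate 4. The early control hearts spread 7.48-fold to 12.4-fold in the 4 hemoglobin rows, and 1 heart had 232 hemoglobin counts in all.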
